A study of Mus musculus with 20 samples.

Results

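Kupffer cells are the resident macrophages of the liver, and 8 genes that mark their identity were followed here in the liver and white adipose tissue (WAT) of mice on a high-fat diet (HFD): Clec4f, Cd5l, Marco, Timd4, Vsig4, Cd163, Slc40a1 and Id3. They were taken by name, with earlier results of these data known, out of 28786 gene names or sequence identifiers on the array. All 8 were found, each through 1 probe, and all 8 were bright enough to be tested in both tissues. Male C57BL/6 mice without CD44, CD44KO(HFD), were compared with wild-type mice, WT(HFD). CD44 is a cell surface receptor for hyaluronan and osteopontin. All mice were 7 months old and had eaten the diet, with 35% fat, for 21 weeks, and no lean group was analysed here. CD44 was missing from the whole body, not from macrophages alone, and the line had been backcrossed to C57BL/6J. Total RNA from 5 samples of each genotype and tissue was hybridised to 1-colour Agilent arrays, which gave 20 arrays.

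Kupffer cells are seeded before birth from embryonic precursors and then maintain themselves in the sinusoids, where they take up bacteria, dying cells, lipid and aged red cells. Signals from neighbouring cells, among them Notch ligands and members of the TGF-beta and BMP family, hold their identity together with the nuclear receptor LXR alpha and other regulators. When resident cells are lost, blood monocytes can enter the niche and gain Clec4f early, while Timd4 comes late or not at all and is often used to mark the embryo-derived cells. Not all 8 genes are restricted to Kupffer cells, since Slc40a1 and Id3 are also used by other liver cells and Cd163 by resident macrophages of fat.

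The promoters of Marco, Timd4 and Id3 are shown because these members passed the test in liver, Marco and Timd4 upward and Id3 downward. Each sequence is the 250 bases before the annotated start, 5′ to 3′ on the strand of the gene, from RefSeq on GRCm38.p6. Capitals mark, on either strand, the PU.1 core GAGGAA, the ETS core GGAAGT and the MAF recognition letters TGCTGA, letters known from factors that act in macrophages. The first and second of these can overlap by their shared letters GGAA.
Marco, chr1:120505025-120505274, minus strand: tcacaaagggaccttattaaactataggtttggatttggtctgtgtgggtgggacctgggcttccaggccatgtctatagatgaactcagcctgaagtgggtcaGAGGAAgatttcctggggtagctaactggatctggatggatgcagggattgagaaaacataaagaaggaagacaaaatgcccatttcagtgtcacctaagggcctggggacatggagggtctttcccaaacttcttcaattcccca
Timd4, chr11:46810549-46810798, plus strand: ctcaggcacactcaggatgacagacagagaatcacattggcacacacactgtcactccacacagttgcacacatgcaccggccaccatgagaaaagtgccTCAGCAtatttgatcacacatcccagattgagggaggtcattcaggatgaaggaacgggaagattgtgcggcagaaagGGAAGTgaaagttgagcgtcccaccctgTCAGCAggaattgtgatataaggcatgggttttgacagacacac
Id3, chr4:136143572-136143821, plus strand: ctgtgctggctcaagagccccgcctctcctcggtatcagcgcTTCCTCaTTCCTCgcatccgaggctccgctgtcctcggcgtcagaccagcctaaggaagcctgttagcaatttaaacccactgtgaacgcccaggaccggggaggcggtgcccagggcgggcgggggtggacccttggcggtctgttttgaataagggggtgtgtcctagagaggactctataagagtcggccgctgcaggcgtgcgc
The Marco window held 1 GAGGAA, the Timd4 window 1 GGAAGT and 2 TGCTGA, and the Id3 window 2 GAGGAA, so Marco and Timd4 shared none of these. Of the 8 genes 7 had a promoter entry, and Slc40a1 had none. GAGGAA occurred in 4 of those 7 (Cd5l, Marco, Vsig4 and Id3) and in 23.3% of all 32851 promoter windows of this length. GGAAGT occurred in 3 (Clec4f, Timd4 and Vsig4) against 19.7% of windows, and TGCTGA in 3 (Clec4f, Cd5l and Timd4) against 16.1%. The E-box CANNTG, the site of the E proteins that ID3 keeps off DNA, occurred in 3 (Cd5l, Timd4 and Cd163) against 66.2%. The BMP response site GGCGCC occurred in 0 of the 7, against 9.59% of windows, and the LXR element of the DR4 type in 0, against 0.0152%. These matches describe the letters and not binding.

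Values are log2 signals, the log2 of the scanner's processed signal minus that of the 75th percentile of the same array, so that 0 is the brightness of that percentile and 1 unit a doubling. They compare a gene between arrays, and not a gene with another. A probe entered the test of a tissue when 3 or more of the 5 arrays in either genotype were marked by the scanner software as well above background. Genotypes were compared with limma over all such probes, with Benjamini-Hochberg adjusted p and a threshold of 0.05. P-values measure the spread between these samples. The brightest Cd44 probe checked the labels and fell from 0.48 ± 0.28 to -3.74 ± 0.41 in liver (SD, n = 5 per group) and from 4.07 ± 0.37 to -0.51 ± 0.13 in WAT. A second probe was well above background in 5 WT(HFD) and 0 knockout livers and differed by -4.28 in WAT, and another, near background, by 0.20 in liver (adjusted p = 0.888). Liver arrays had 57.4% to 61.9% of probes well above background. WAT arrays had 63.2% to 69.5%, except WT(HFD) WAT replicate 1 with 89.5%, an array that stands apart.

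In liver, Marco and Timd4 were higher in CD44KO(HFD) than in WT(HFD), by 7.71-fold and 7.97-fold, and Id3 was lower, by 1.89-fold. The other 5 genes did not pass the test. This made 3 of 8 members past the threshold, against 13.6% of all 24689 probes tested in liver, with 2 of 8 higher (7.85% of all probes) and 1 of 8 lower (5.75%). At an unadjusted p under 0.05 there were 5 of 8, against 32.2%. The log2 fold change was above 0 in 7 of 8 members and in 61.3% of all probes, and its median was 0.94 over the members and 0.075 over all probes. Since whole liver was measured, fewer cells of a type and less RNA per cell cannot be told apart for any gene below.

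**Figure D1:**
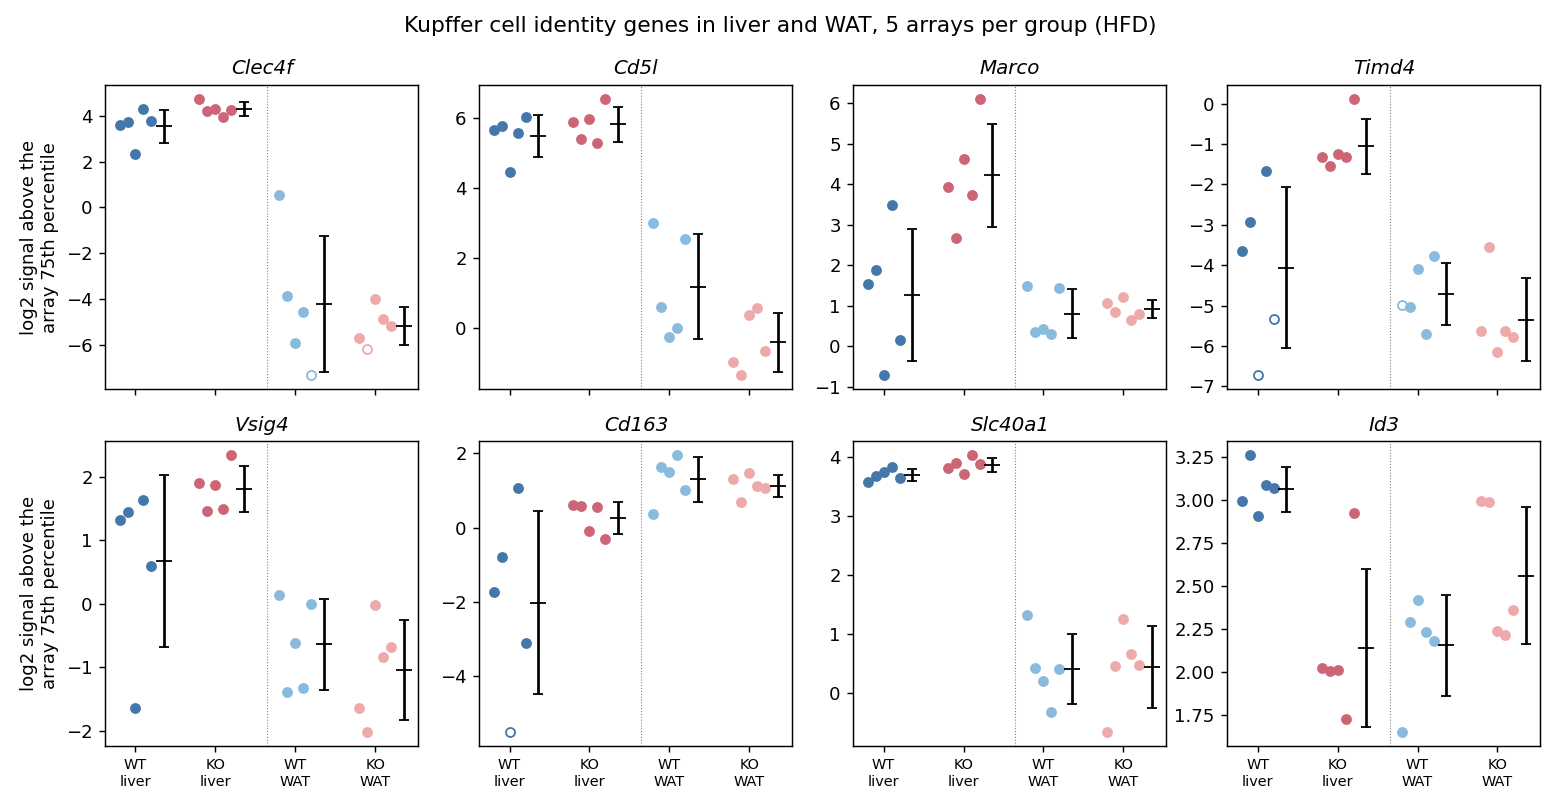
Log2 signal (y axis, relative to the 75th percentile of the array) of the 8 genes on the 20 arrays, by genotype and tissue (x axis; KO is CD44KO, all on HFD). Points are single arrays, replicates 1 to 5 from left to right, open where the probe was not well above background, and bars are the mean ± SD of 5. The Timd4 panel shows 2 liver groups without overlap, and the WT liver points of Marco, Timd4 and Cd163 are widely spread.

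Marco is a scavenger receptor that binds bacteria and modified lipoproteins. The study itself had picked it from these arrays, so its rise is not independent evidence. Replicates 1 to 5 of the WT(HFD) livers read 1.55, 1.88, -0.71, 3.49 and 0.17. The CD44KO(HFD) livers read 3.95, 2.68, 4.63, 3.74 and 6.11. Knockout replicates 1, 3, 4 and 5 were above every WT(HFD) liver, and replicate 2 was below WT(HFD) replicate 4, so the groups overlapped. The log2 difference was 2.95 ± 0.82 (SE; 95% interval 1.14 to 4.76; limma adjusted p = 0.0410), and the exact two-sided permutation test of the 10 values gave p = 0.0159.

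Timd4 encodes TIM-4, a receptor for phosphatidylserine on dying cells. Its WT(HFD) liver values were -3.64, -2.94, -6.73, -1.66 and -5.32, of which replicates 3 and 5 were not well above background. Its CD44KO(HFD) values were -1.33, -1.53, -1.25, -1.33 and 0.12, all well above background. Every knockout liver was above every WT(HFD) liver, which 7.49% of all liver probes showed in this direction. The log2 difference was 2.99 ± 0.83 (SE; 95% interval 1.15 to 4.84; limma adjusted p = 0.0414), and the exact two-sided permutation p was 0.00794, the smallest that 5 against 5 arrays can give. Counting the gene's own probe, 6 probes in liver had an upward log2 change at least as large as that of Timd4, and 7 as that of Marco.

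Id3 encodes an inhibitor of E proteins that Kupffer cells need to form, and is also a response gene of BMP signals. WT(HFD) livers read 2.99, 3.26, 2.90, 3.09 and 3.07. CD44KO(HFD) livers read 2.03, 2.01, 2.01, 1.73 and 2.93. Knockout replicates 1 to 4 were below every WT(HFD) liver, and replicate 5 was within the WT(HFD) range. Id3 fell by 0.92 ± 0.20 (SE) on the log2 scale (limma adjusted p = 0.0194), and the exact two-sided permutation p was 0.0159.

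Clec4f, a galactose-binding C-type lectin used to mark mouse Kupffer cells, read 3.59, 3.70, 2.34, 4.30 and 3.76 in WT(HFD) livers and 4.73, 4.22, 4.31, 3.95 and 4.23 in CD44KO(HFD) livers. The groups overlapped, with 2 knockout livers above every WT(HFD) liver and WT(HFD) replicate 3 well below the rest. The log2 difference was 0.75 (95% interval 0.057 to 1.44), which did not pass (limma adjusted p = 0.129).

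Vsig4, the complement receptor CRIg that captures C3-coated particles, read 1.31, 1.44, -1.64, 1.63 and 0.60 in WT(HFD) livers and 1.89, 1.46, 1.86, 1.49 and 2.33 in CD44KO(HFD) livers. The knockout values were close together, and WT(HFD) replicate 3 was again the lowest. The log2 difference of 1.14 (95% interval -0.092 to 2.37) did not pass (limma adjusted p = 0.186).

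Cd163, the receptor that clears haptoglobin-haemoglobin complexes, read -1.73, -0.80, -5.49, 1.07 and -3.11 in WT(HFD) livers, where replicate 3 was not well above background. The CD44KO(HFD) livers read 0.61, 0.57, -0.076, 0.55 and -0.32. All knockout values lay inside the WT(HFD) range, since WT(HFD) replicate 4 was the highest of the 10. The log2 difference was 2.28 (95% interval 0.080 to 4.48; limma adjusted p = 0.143).

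Cd5l, a secreted inhibitor of apoptosis (AIM) and an LXR target, averaged 5.50 ± 0.60 in WT(HFD) and 5.82 ± 0.50 in CD44KO(HFD) livers (SD, n = 5 per group). Its log2 difference was 0.33 (95% interval -0.37 to 1.02; limma adjusted p = 0.507). Slc40a1, the iron exporter ferroportin, read 3.57 to 3.83 in WT(HFD) and 3.71 to 4.02 in CD44KO(HFD) livers, the narrowest ranges of the 8 genes in each genotype. Its log2 difference was 0.17 (95% interval -0.0066 to 0.35; limma adjusted p = 0.169).

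**Figure D2:**
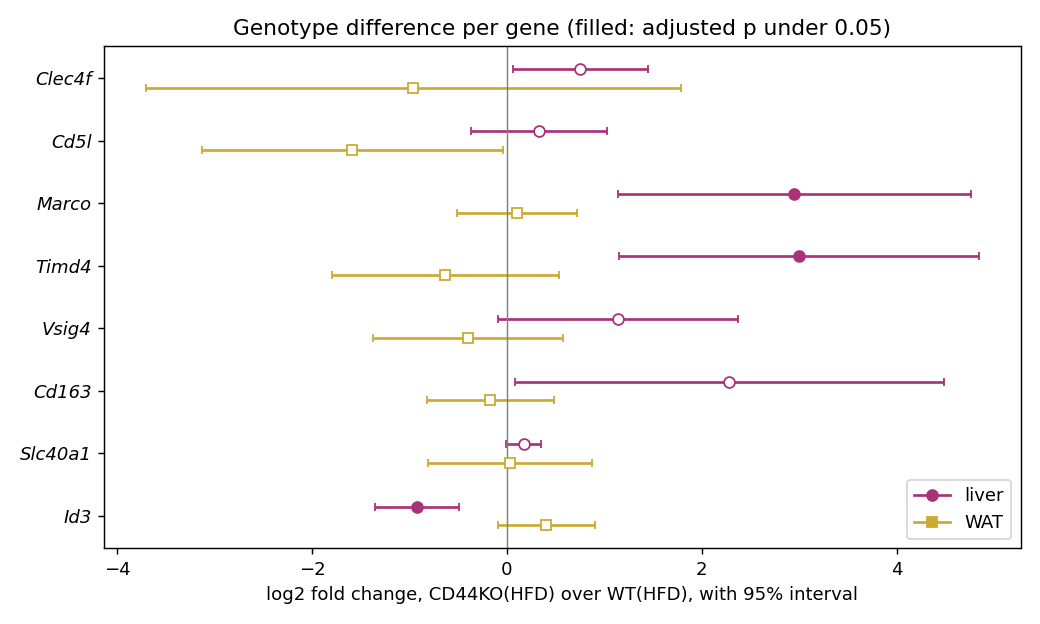
Log2 fold change of CD44KO(HFD) over WT(HFD) (x axis) with its 95% interval for each of the 8 genes (y axis), in liver (circles) and WAT (squares), 5 arrays per group. Filled symbols passed limma's adjusted p of 0.05, and these are Marco (2.95), Timd4 (2.99) and Id3 (-0.92) in liver.

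Most members varied more among the WT(HFD) livers than other genes did. The SD over the 5 WT(HFD) livers was 2.47 for Cd163, and no probe tested had a larger one. It was 1.99 for Timd4 (0.0972% of probes larger), 1.62 for Marco (0.324%) and 1.35 for Vsig4 (0.859%), while the median over all probes was 0.19. Slc40a1 (0.097) and Id3 (0.13) were below that median. In CD44KO(HFD) livers the SD was 0.43 for Cd163, 0.67 for Timd4, 0.36 for Vsig4, 1.27 for Marco and 0.46 for Id3. The difference in spread between genotypes was not tested.

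A single WT(HFD) liver, replicate 3, was the lowest of the 10 liver arrays for 6 of 8 members, namely Clec4f, Cd5l, Marco, Timd4, Vsig4 and Cd163. It was also lowest for 13 of 20 other Kupffer and resident macrophage genes and 10 of 12 markers of liver sinusoidal endothelial cells, against 16.0% of all liver probes. It was lowest for 0 of 11 hepatocyte markers and 0 of 16 markers of monocytes and recruited macrophages. Another WT(HFD) liver, replicate 1, was the lowest for 1 of 8 members and for 22.1% of all probes, and without it the limma adjusted p was 0.0743 for Marco, 0.0727 for Timd4 and 0.0415 for Id3. CD44KO(HFD) replicate 5 was the highest of the 10 for 4 of 8 members (Cd5l, Marco, Timd4 and Vsig4) and 10 of the 20 other resident genes, against 6.52% of all probes.

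**Figure D3:**
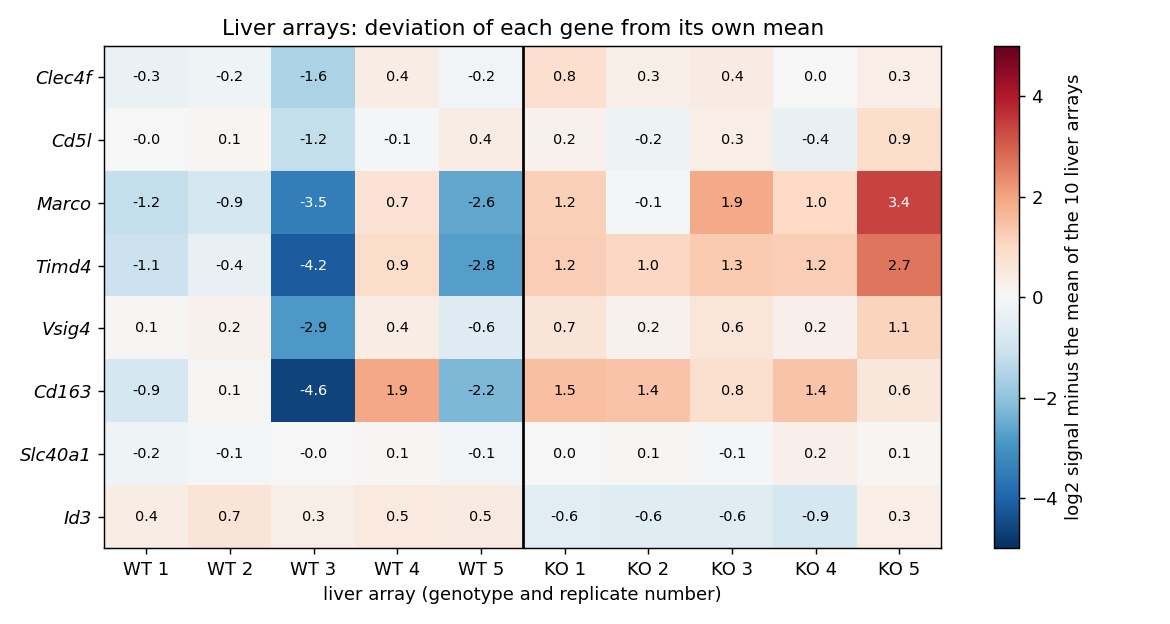
Deviation of each gene (rows) from its own mean over the 10 liver arrays, in log2 units (colour and printed number), for each array (columns, WT(HFD) left of the line and CD44KO(HFD) right of it). The column of WT 3 holds the lowest value of 6 genes, and the column of KO 5 the highest value of 4.

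Without WT(HFD) replicate 3 the log2 differences were 2.45 for Marco (limma adjusted p = 0.0715), 2.33 for Timd4 (0.0554), 1.41 for Cd163 and 0.56 for Vsig4, and Id3 was the 1 member past the threshold (-0.96, adjusted p = 0.0344). Over the 10 fits that each left out 1 liver, Marco passed in 2 (without WT(HFD) replicate 4 or CD44KO(HFD) replicate 2) and Timd4 in 2 (without WT(HFD) replicate 4 or CD44KO(HFD) replicate 3), with differences of 2.45 to 3.50 and 2.33 to 3.59 and adjusted p of at most 0.0856 and 0.0870. Id3 passed in 9, with -1.12 to -0.82, and not without WT(HFD) replicate 2 (adjusted p = 0.0540). Cd163 passed without WT(HFD) replicate 4, the array where it was highest (3.05, adjusted p = 0.0357), and in no other of these fits.

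**Figure D4:**
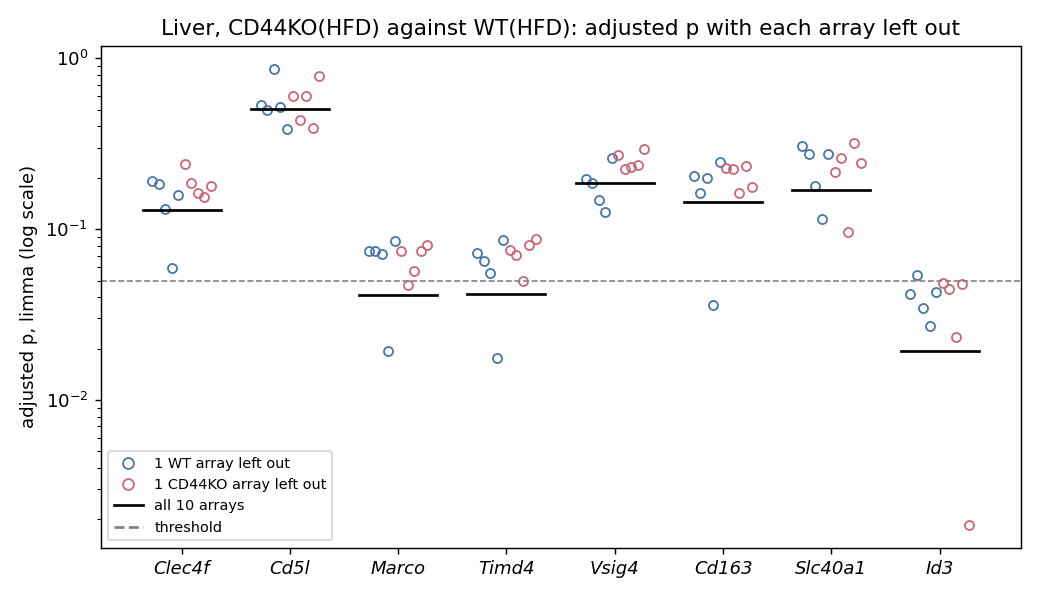
Adjusted p from limma in liver (y axis, log scale) for the 8 genes (x axis) with all 10 arrays (black line) and with 1 array left out (circles, blue for a WT array and red for a CD44KO array); the dashed line is 0.05. Marco and Timd4 lie under the dashed line with all arrays and in 2 of 10 fits with an array left out, and Id3 in 9 of 10.

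The liver arrays lay on 3 slides, each scanned at its own time and each holding both genotypes. On slide 1 (2 arrays of each genotype) the log2 difference was 0.52 for Marco, 0.87 for Timd4 and -1.30 for Id3. On slide 2 (2 of each) these were 4.52, 3.92 and -0.56, and on slide 3 (1 of each, with WT(HFD) replicate 3) 4.66, 5.40 and -0.88. The directions were the same on every slide, and Marco and Timd4 differed least on slide 1. With the slide as a block, Marco (adjusted p = 0.0405), Timd4 (0.0300) and Id3 (0.0205) passed limma's test.

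Several members moved together from liver to liver. With the mean of each genotype taken off, Pearson's r over the 10 livers was 0.92 for Marco and Timd4, 0.90 for Timd4 and Vsig4, 0.88 for Timd4 and Cd163 and 0.87 for Clec4f and Vsig4. For Slc40a1 it was -0.43 to 0.21 with the other 7 genes. For Id3 it was 0.69 with Cd5l, 0.60 with Marco and 0.048 with Cd163. These values describe 10 arrays that share slides and scaling. They also rest in part on WT(HFD) replicate 3. It differed from its group mean by -2.67 for Timd4, -2.31 for Vsig4, -3.48 for Cd163 and -1.20 for Clec4f. For Id3 that liver differed by -0.16, while CD44KO(HFD) replicate 5 differed from its own group mean by 0.79. The latter also differed by 0.73 for Cd5l and 1.89 for Marco, so the r of Id3 with these 2 rest in part on it. The r without either liver was not computed. Without removing the genotype means, and by Pearson's r over the same 10 livers among 15046 probes well above background in all 10 livers, the pair of genes closest to each member was sought. For Clec4f these were Rnf6 (0.97) and the Fc receptor gene Fcgr2b (0.97), and for Cd5l Fyn (0.97) and Sdc3 (0.97). Marco was closest to Cdc14b (0.98) and Ccdc106 (0.97), and Timd4 to Ccdc106 (0.97) and Marco (0.96). Vsig4 was closest to Folr2 (0.96) and Tspan18 (0.96), and Cd163 to Pon3 (0.95) and Lypla1 (0.95). For Slc40a1 they were Rab11b (0.98) and Adtrp (0.98), and for Id3 Il6st, the shared receptor subunit of IL-6 type cytokines (0.97), and Pcdhga7 (0.92). Each was picked as the highest among 15046 probes over only 10 arrays. High r can arise from such a search alone, and none was tested.

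The list counts below stand beside 7.85% of all liver probes higher, 5.75% lower, 61.3% above 0 and 32.2% at an unadjusted p under 0.05. Of all liver probes 3358 passed, 641 with normexp background correction, 3228 with quantile normalization and 1027 without a filter. Of 20 other Kupffer and resident macrophage genes, 0 rose and 0 fell in liver by limma's test. Of these 20, 4 had an unadjusted p under 0.05, and the median log2 fold change was 0.0043. Adgre1 (F4/80) read 1.93 ± 0.65 in WT(HFD) and 2.43 ± 0.78 in CD44KO(HFD) livers (SD, n = 5; limma adjusted p = 0.430). Csf1r, the CSF1 receptor, read 2.07 ± 0.50 and 2.15 ± 0.37 (limma adjusted p = 0.874). The largest upward differences were those of the folate receptor gene Folr2 (1.01, adjusted p = 0.107) and the ficolin gene Fcna (0.88, adjusted p = 0.0587), and the largest downward ones those of Ms4a7 (-0.94, adjusted p = 0.249) and the Fc receptor gene Fcgr1 (-0.67, adjusted p = 0.0693), with 10 of the 20 above 0 and 10 below. Without WT(HFD) replicate 3, 1 of the 20 fell and the median was -0.21. Of the named genes, Adgre1 and Csf1r were lower in WT(HFD) liver than in WT(HFD) WAT (log2 differences of -4.37 and -2.08). The list is thus not restricted to Kupffer cells, and its median does not read these cells alone.

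Of 16 markers of monocytes and recruited macrophages tested in liver, 9 fell and 0 rose, 7 did not pass, and the median log2 fold change was -1.28. With normexp background correction 4 fell, 3 were above 0 and the median was -0.81. Another Fn1 probe rose (0.49, limma adjusted p = 0.0362), while the one used (0.36, 0.0791) and a further one (0.15, 0.445) did not pass. The study had picked Ly6c1, Ccr2, Cx3cr1, Itgax and Mmp12 from these arrays, so their direction is not independent evidence. Gpnmb, a marker of lipid-laden macrophages, fell by 4.40 on the log2 scale (limma adjusted p = 0.0157) and was well above background in 5 WT(HFD) livers and 1 knockout liver. Trem2, a lipid receptor of recruited macrophages, fell by 2.53 (adjusted p = 0.0103), the chemokine receptor gene Cx3cr1 by 2.38 (0.0156) and Itgax (CD11c) by 2.01 (0.0284). Cx3cr1 was well above background in 5 WT(HFD) and 2 knockout livers, so the size of its difference, like that of Gpnmb, rests in part on arrays near background. A second probe of Cx3cr1 (-0.35, 0.160) and one of Itgax (0.15, 0.676) did not pass, and the latter pointed upward. The summed signal of the 17 genes on the array, in units of the 75th percentile, was 95.4 to 208 in WT(HFD) and 77.4 to 139 in CD44KO(HFD) livers, and Itgam was well above background in 0 knockout livers. Without WT(HFD) replicate 3, 7 of the 16 fell, and without replicate 1, the highest of the 10 livers for 12 of them, 6 fell with a median of -1.04. Over the 10 fits with a liver left out 4 to 11 fell and 0 to 1 rose, with 4 lower without WT(HFD) replicate 2 or CD44KO(HFD) replicate 1 or 4 and 5 without CD44KO(HFD) replicate 2. Their part in the differences of the 8 genes was not tested.

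Of 12 sinusoidal endothelial markers, 0 rose and 0 fell by limma's test, and 2 had an unadjusted p under 0.05. While 61.3% of all liver probes had a log2 fold change above 0, 11 of these 12 markers did (median 0.40). Their summed signal was 24.4 to 62.6 in WT(HFD) livers, lowest in replicate 3, and 46.1 to 68.8 in CD44KO(HFD) livers. Hepatocyte markers were above 0 in 11 of 11 (median 0.38), with summed signals of 2469 to 3511 and 3199 to 3929, and 1 rose, Cyp2e1 (0.62, adjusted p = 0.0491). WT(HFD) replicate 1 was the lowest of the 10 livers for 10 of these 11, and without it 10 were above 0 (median 0.26) and 0 rose, against 0 to 5 over all 10 fits with a liver left out and 0 with normexp. Of 11 lymphocyte markers 3 fell, Cd8a (adjusted p = 0.00296), Nkg7 (-1.32, adjusted p = 0.0146) and Cd3d (-1.04, adjusted p = 0.0122). Of the 11, 5 were above 0 and 6 below, with a median of -0.0025. Cd8a had been picked by the study too and was well above background in 5 WT(HFD) and 0 knockout livers. Of 6 adipocyte markers 1 fell, Cidec (-2.12, adjusted p = 0.0486), also picked by the study, while Lep was well above background on 0 liver arrays. Erythroid markers gave 0 of 4 (2 at an unadjusted p under 0.05) and peritoneal macrophage markers 0 of 3 (0 at an unadjusted p). The part of these cells in the differences of the 8 genes was not tested.

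**Figure D5:**
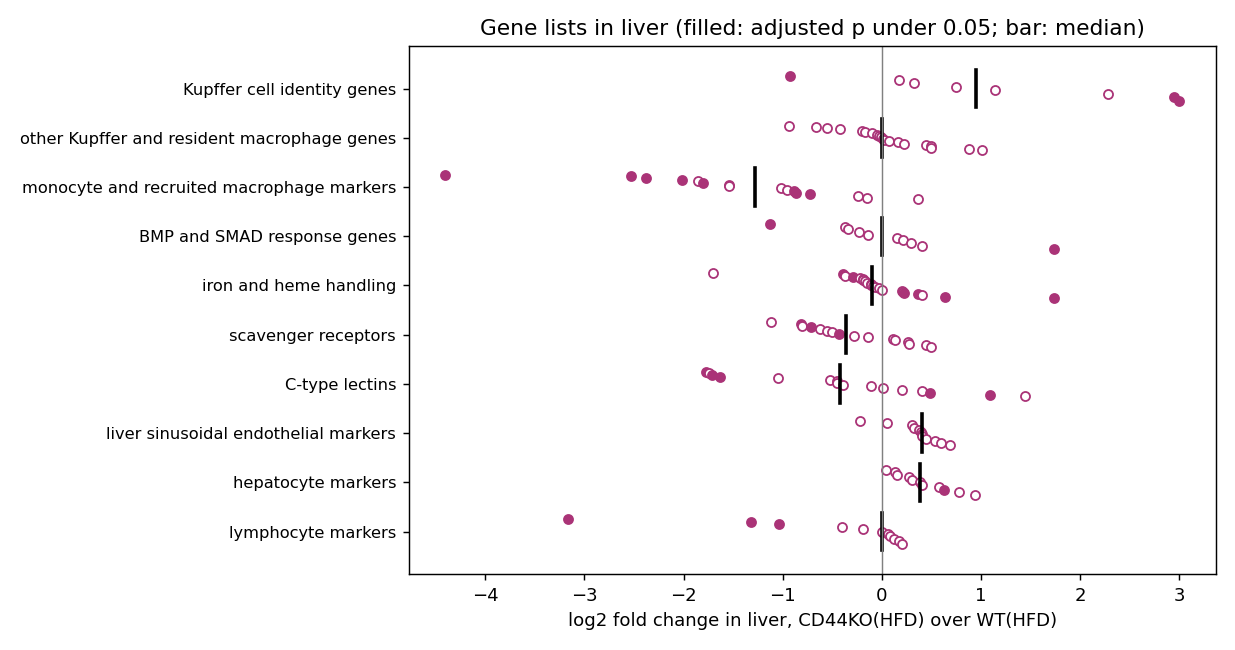
Log2 fold change in liver of CD44KO(HFD) over WT(HFD) (x axis) for the genes of 10 lists (y axis), 1 circle per gene, filled where limma's adjusted p was under 0.05, with a bar at the median. The 8 Kupffer cell identity genes have a median of 0.94, the other resident macrophage genes 0.0043 and the markers of monocytes and recruited macrophages -1.28. The list of other resident macrophage genes is not restricted to Kupffer cells.

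The transcriptional regulators of macrophage identity gave 0 higher and 3 lower of 17 by the probe used per gene. By another probe Rxra rose (0.47, limma adjusted p = 0.0212) and Zeb2 fell (-0.63, 0.0276). The probes used for Rxra (0.37, 0.0656) and Zeb2 (-0.21, 0.364) did not pass. Maf, which restrains self-renewal of macrophages, fell by 0.77 (limma adjusted p = 0.0157), Mef2c by 0.63 (0.0121) and Irf8, which monocytes need to develop, by 0.60 (0.0194). The 3 other Maf probes did not pass (-0.24, -0.17 and 0.55, with adjusted p of 0.362, 0.475 and 0.113) and 1 of them pointed upward, and a second Irf8 probe did not pass (-0.50, 0.102). Nr1h3, which encodes LXR alpha, differed by 0.18 (0.253) and did not pass. Among 16 signals that maintain Kupffer identity and their receptors, 1 rose and 2 fell. The ligand Bmp6 rose by 0.70 (0.0267), while Il34, a ligand of CSF1R, fell by 0.88 (0.00417) and Notch1 by 0.53 (0.0202). A second Bmp6 probe did not pass (0.31, 0.203).

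Of 10 BMP and SMAD response genes other than Id3, Id1 fell and Hamp2 rose. Id1, a close relative of Id3, read -0.049, 0.096, -0.23, 0.70 and -0.0013 in WT(HFD) livers and -0.97, -1.45, -1.11, -1.01 and -0.61 in CD44KO(HFD) livers. The groups did not overlap, as for 4.22% of all liver probes in this direction, and the log2 difference was -1.13 (limma adjusted p = 0.0115). The remaining Id genes did not pass: Id2 differed by 0.15 (0.616; -0.34 by a second probe) and Id4 by 0.21 (0.567). Hamp2, one of the hepcidin genes, rose by 1.74 (0.0472) and did not pass with normexp.

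Of 14 LXR targets other than Cd5l, 4 rose and 0 fell, against 7.85% and 5.75% of all liver probes. These counts became 2 and 0 with normexp and 3 and 0 with quantile normalization. With a liver left out, 2 to 4 were higher and 0 to 3 lower. Abcg8 (1.07, adjusted p = 0.00815) and Abcg5 (0.99, adjusted p = 0.00450) form the transporter that hepatocytes use to secrete cholesterol into bile. Srebf1 (0.55, adjusted p = 0.0448) drives fatty acid synthesis, and Abca1 (0.37, adjusted p = 0.0309) exports cholesterol.

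Around Slc40a1 and Cd163, 22 genes of iron and haem handling gave 4 higher and 2 lower, against 0 and 0 with normexp, 2 and 3 with quantile normalization and 1 to 4 higher and 0 to 2 lower with a liver left out. Beside Hamp2, Tfr2, a transferrin receptor of hepatocytes, rose by 0.64 (limma adjusted p = 0.0129) and Tmprss6, which dampens BMP signals to hepcidin, by 0.36 (0.0273). Cp, the ferroxidase ceruloplasmin, fell by 0.39 (0.0291).

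Of 13 ligands and partners of the 8 genes, 2 rose and 2 fell, against 0 and 2 with normexp and 1 and 2 with quantile normalization. Tcf12, which encodes an E protein, was among those that rose, by 0.47 (limma adjusted p = 0.0197), while its other probes did not pass (0.21 and 0.39, adjusted p of 0.0822 and 0.401). Mfge8, which bridges phosphatidylserine on dying cells to phagocytes, fell by 0.81 (0.0361), and the galectin gene Lgals3, which the study had picked too, by 1.33 (0.0319).

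Relatives of the 8 genes were counted as broad lists. That of scavenger receptors and related genes, which also holds Cd36 and Mrc1, is wider than the families of Marco, Cd5l and Cd163. Among its 16 tested genes 0 rose and 3 fell: Cd5 (-0.82, adjusted p = 0.0285), Lgals3bp (-0.71, adjusted p = 0.0182) and Cd6 (-0.43, adjusted p = 0.0300). With normexp 1 of them fell, and with a liver left out 0 to 4. A second Cd6 probe pointed upward and did not pass (0.26, 0.361). Among 16 tested C-type lectins, the family of Clec4f, 2 rose and 3 fell, against 0 and 1 with normexp and 1 to 3 higher and 0 to 5 lower with a liver left out. Clec4d (-1.77, adjusted p = 0.0357), Clec7a (-1.71, adjusted p = 0.0303) and Clec5a (-1.63, adjusted p = 0.0342) fell, of which the study had picked Clec7a and Clec5a, and Clec2d (1.09, adjusted p = 0.0110) and Asgr2 (0.48, adjusted p = 0.0281) rose. Clec4d was well above background in 1 knockout liver and Clec5a in 2, so the sizes of these differences rest in part on arrays near background too.

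In WAT, 0 of the 8 genes passed limma's test between the genotypes, against 0.0398% of 27654 probes. The genotypes were spread unevenly over the WAT slides. Slide 1 held 2 arrays of each genotype, and slide 2 held 3 of WT(HFD) and 1 of CD44KO(HFD). Slide 3 held CD44KO(HFD) replicates 1 and 4 and no WT(HFD) array. Genotype and slide thus cannot be fully told apart in WAT, nor in the comparison of its genotype effect with that in liver. At an unadjusted p under 0.05 there was 1, Cd5l, against 14.9% of all probes. Cd5l read 2.98, 0.59, -0.28, -0.016 and 2.55 in WT(HFD) WAT and -0.99, -1.37, 0.36, 0.55 and -0.66 in CD44KO(HFD) WAT. WT(HFD) replicates 1 and 5 were high and the groups overlapped, with a log2 difference of -1.59 (95% interval -3.13 to -0.044; limma adjusted p = 0.325), and of -1.13 without WT(HFD) WAT replicate 1.

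The genes that passed in liver had intervals that held 0 in WAT. Marco differed by 0.10 (95% interval -0.51 to 0.72), Timd4 by -0.63 (-1.80 to 0.53) and Id3 by 0.40 (-0.094 to 0.90). Clec4f was 0.54 in WT(HFD) WAT replicate 1, the array that stands apart, and -7.32 to -3.84 in the remaining WT(HFD) samples. Its log2 difference of -0.96 became 0.23 without that array. Vsig4, Cd163 and Slc40a1 differed by -0.40, -0.17 and 0.032 (limma adjusted p = 0.653, 0.774 and 0.971). Of 20 other resident macrophage genes in WAT 0 passed limma's test and 8 had an unadjusted p under 0.05, against 14.9% of all WAT probes. Of the 20, 19 were below 0, with a median of -0.45, against a median of -0.060 over all WAT probes. With median scaling, which moved the WAT probes upward as a whole, 9 were below 0 and the median was 0.029, so the direction of this list in WAT depended on the scaling.

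The genotype effect in liver differed from that in WAT for 1 of the 8 genes, against 1.15% of 28989 probes. For Id3 the liver effect minus the WAT effect was -1.33 ± 0.30 (SE; limma interaction over 20 arrays, adjusted p = 0.0445), and it passed in 6 of 20 fits that each left out 1 array (-1.52 to -1.20, adjusted p of at most 0.0909). Those 6 left out CD44KO(HFD) liver replicate 3 or 5, WT(HFD) WAT replicate 4 or 5, or CD44KO(HFD) WAT replicate 3 or 4, and without WT(HFD) WAT replicate 1 the adjusted p was 0.0519. For Timd4 it was 3.63 (adjusted p = 0.0920) and for Marco 2.84 (0.130). For the remaining 5 it was 0.14 to 2.45, with adjusted p of 0.253 to 0.882.

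In WT(HFD) mice, 4 of the 8 genes were higher in liver than in WAT by limma's test (against 34.7% of probes), namely Clec4f by 7.75, Cd5l by 4.33, Slc40a1 by 3.29 and Id3 by 0.91 on the log2 scale. Cd163 was the 1 gene lower in liver (-3.31, adjusted p = 0.0170; 33.5% of probes). This made 5 of 8 past the threshold, against 68.3%. Marco (0.46, adjusted p = 0.580), Timd4 (0.66, 0.524) and Vsig4 (1.31, 0.0900) did not pass. In CD44KO(HFD) mice, compared after the data had been seen, 6 were higher in liver (43.6% of probes) and 1 lower (33.4%), so 7 of 8 passed, against 77%. Marco was 3.31 higher in liver there, Timd4 4.28 and Vsig4 2.85, Cd163 differed by -0.86, and Id3 did not pass (-0.42, adjusted p = 0.150). Each slide held 1 tissue, so tissue and slide cannot be told apart. As a check of the tissues, albumin (Alb) read 10.25 ± 0.15 in WT(HFD) liver and 2.65 ± 1.75 in WT(HFD) WAT (SD, n = 5), and Adipoq, the defining adipocyte marker, was well above background on 1 WT(HFD) liver array and on 5 WT(HFD) WAT arrays.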

How the data were processed

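Total RNA of liver and WAT (500 ng labelled per sample) was hybridised to Agilent mouse arrays. The deposited intensities were made, per the file headers, with Feature Extraction 9.5.3.1: background was removed as a spatial trend, dim spots were given a surrogate, arrays were not scaled to each other, and a spot past 13 SD of the background was marked well above it. Differences that involve dim probes rest on such surrogates. The deposited value table held the same processed intensity.

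Here control spots (43379 of 45018 were kept) and outlier spots were left out, spots were averaged into 41174 probes, and log2 intensity minus the array's 75th percentile was tested with limma 3.58.1 in R 4.3.3. Each of the 8 genes had 1 probe. For list and check genes with several probes, the one brightest on average over all 20 arrays was used. List counts rest on that probe, and other probes of some genes differed in outcome. All 8 genes were named, and from each list up to 4 genes past the threshold, the genes that check tissue and genotype, and the 2 genes most like each member. Other genes were named after their values were seen, and some list members are not reported here by name. The 8 genes and the lists were chosen with earlier results of these data known. Alternatives were normexp background correction (offset 50), quantile and median scaling, other filters, blocks for replicate number and slide, all 20 arrays in one fit, and leaving out each array. The scripts were tested on simulated data. With 5 arrays per group, small differences could not be resolved.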

Additional observations from a re-analysis of the deposited data

Results flagged for a closer look

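Among 5 samples of a group, where chance marks about 1 in 20 groups, a single sample stood far from the other 4 for these genes. Cd5l was low in WT(HFD) liver replicate 3 (4.47), at a gap of 0.72 of the group's range. Timd4 was high in CD44KO(HFD) liver replicate 5 (0.12, gap 0.83) and in CD44KO(HFD) WAT replicate 2 (-3.55, gap 0.80). Id3 was high in CD44KO(HFD) liver replicate 5 (2.93, gap 0.75). Without that array the log2 difference in liver was -1.12 for Id3 (limma adjusted p = 0.00186) and 2.70 for Timd4 (0.0870). The genotype effect on Id3 differed between the tissues, by -1.33 on the log2 scale (limma interaction, adjusted p = 0.0445).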

How the results depend on the processing

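In liver, 3358 probes and 3 of the 8 genes passed. With normexp 641 probes passed, without a filter 1027 (1 of the 8), with the replicate block 1329 (1 of the 8) and with all 20 arrays in one fit 723. Leaving out each array gave 858 to 4647 probes and 0 to 4 of the 8. Of the probes called, 57.7% were higher in the knockout, 33.7% with normexp, 43.7% without a filter and 25.6% with all arrays. Marco did not pass with normexp (2.72, adjusted p = 0.0749), and neither Marco (0.0844) nor Timd4 (0.0854) without a filter. With the replicate block the adjusted p was 0.0980 for Marco, 0.0776 for Timd4 and 0.0439 for Id3. Same-numbered livers had deviations correlated at -0.038 to 0.42, and the numbers were not taken as pairs. Within liver slide 1, Cd5l (-0.32) and Vsig4 (-0.064) turned. Liver list counts of genes higher and lower, 4 and 2 for iron, 4 and 0 for LXR targets, 2 and 3 for lectins, 0 and 3 for scavenger receptors and 0 and 9 for monocyte markers, became 1 and 0, 2 and 0, 1 and 0, 0 and 1 and 0 and 4 without a filter, and 1 and 0, 2 and 0, 1 and 0, 0 and 1 and 0 and 6 with the replicate block.

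In WAT, 11 probes passed, 35 with normexp, 19 with median scaling, 3 without a filter, 3 with the replicate block, 4 with the slide block, 1817 with all 20 arrays, and 3 to 19 with an array left out, and 0 of the 8 genes in these fits. Median scaling moved the median of all WAT probes from -0.060 to 0.42, and there Vsig4 (0.080) and Cd163 (0.31) turned, as did Marco (-0.031), Timd4 (0.14) and Slc40a1 (-0.076) with quantile normalization. With an array left out, Clec4f ran from -1.74 to 0.23, Marco from -0.020 to 0.28 and Slc40a1 from -0.17 to 0.31. Within WAT slide 1, Marco (-0.077), Timd4 (0.67) and Slc40a1 (-0.027) turned, and within slide 2 Clec4f (1.71), Vsig4 (0.64), Cd163 (0.082) and Id3 (-0.060).

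For the difference between tissues, 1 of the 8 passed, 2 with normexp and 0 with quantile normalization. Leaving out arrays gave 0 to 2 of the 8, 84 to 582 probes against 334, and -0.14 to 0.34 for Slc40a1. Between the WT(HFD) tissues, Marco ran from -0.089 to 0.96 with an array left out. The cause of these shifts was not tested. A fit with another probe was not run, since each gene has 1. Timd4 and Cd163 in WT(HFD) liver and Clec4f and Timd4 in WAT lie near background, which limits their fold changes.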
